A study of Mus musculus with 7 samples.

Results

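Fetuin B and 4 relatives of the cystatin superfamily were followed in C2C12 myotubes with and without electrical pulse stimulation (EPS). The 5 genes were *Fetub* (fetuin B), *Ahsg* (fetuin A), *Cst6* (cystatin E/M), *Cst3* (cystatin C) and *Cstb* (cystatin B, also called stefin B), and they were picked by symbol from the 26607 genes listed in each library. They were chosen by their EPS and control values in these same libraries. Their levels and differences are therefore given as descriptions, and no p-value of EPS against control is reported for them. C2C12 is an established line of mouse myoblasts that fuse and form myotubes in low serum, and such cultures hold no nerve, vessel or liver cells. Control myotubes (n = 3, replicates 1, 3 and 4) are labelled No treatment, and EPS myotubes (n = 4, replicates 1 to 4) were paced electrically for a day after the first days of differentiation and then rested briefly before RNA extraction. No label gives a separate culture for each library, so spreads and p-values measure the variation between these libraries, which may be technical.

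Cystatins and fetuins share a fold that lets many of them block proteases. The stefins, such as cystatin B, stay mostly inside the cell, whereas cystatin C and cystatin E/M are secreted inhibitors of the papain-like cathepsins, and both also block legumain. The fetuins carry tandem cystatin domains and are best known as plasma proteins made by the liver. Fetuin A binds calcium phosphate and restrains calcification, and fetuin B inhibits some astacin proteases, among them ovastacin, the egg protease that hardens the zona pellucida.

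The RNA-seq values were CPM, in which the reads of a gene are scaled to a fixed library total. Totals ranged from 16616917 to 22120641 reads in control and from 18830229 to 21892568 in EPS, and the floor of 3 reads, at or below which a level was not told apart from 0 (counting error only), was between 0.136 and 0.181 CPM. Control replicate 4 stood apart, with 359 genes of 1 to 5 reads, where every other library had between 2670 and 3181, so the differences of the 4 detected genes among the 5 are given with and without it. Myotube genes such as *Des* and *Acta1* were among the most abundant of all lists in every library, *Ptprc* of leukocytes had at most 1 read, and *Alb* of hepatocytes had none. In bulk RNA, fewer cells of a type and less RNA per cell cannot be told apart.

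*Fetub* and *Ahsg* lie close together on chromosome 16, and 2 RefSeq start sites of *Fetub* were read from the promoter windows of build GRCm38.p6. These stretches are shown because *Fetub* differed most between the groups of all 5 genes and because its start sites carry different short motifs. The motifs searched on both strands, from 250 bases before to 50 bases after each start, were the AHR core GCGTG, the NRF2 core TGACNNNGC, the AP-1 site TGANTCA and the TATA box TATAAA. The stretch before the upstream start (chr16:22918132-22918333, + strand) holds no capitals, and the one before the downstream start (chr16:22919972-22920221, + strand) has the AHR and NRF2 cores in capitals.
Fetub, upstream start: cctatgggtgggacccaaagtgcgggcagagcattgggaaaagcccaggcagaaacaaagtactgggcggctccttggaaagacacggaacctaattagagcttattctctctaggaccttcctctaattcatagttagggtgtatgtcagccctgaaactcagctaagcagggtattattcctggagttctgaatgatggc
Fetub, downstream start: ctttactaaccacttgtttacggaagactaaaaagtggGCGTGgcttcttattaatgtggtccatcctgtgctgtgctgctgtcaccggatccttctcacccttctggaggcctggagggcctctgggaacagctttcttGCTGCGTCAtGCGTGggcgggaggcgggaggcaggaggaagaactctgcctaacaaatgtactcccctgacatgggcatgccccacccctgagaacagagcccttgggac
The upstream window held a TATA box at position -31 from the start, just past the printed stretch, and none of the other 3 motifs. The downstream window held GCGTG at positions -212 and -100 and the NRF2 core, read on the opposite strand, at -110, and neither TATA box nor AP-1 site. GCGTG occurs in 32.4% of all 32851 mouse windows of this length, the NRF2 core in 12.4%, both in 4.79%, the AP-1 site in 7.81% and the TATA box in 13.6%. The single *Ahsg* window also held both cores, GCGTG at -39 and the NRF2 core at -12, each on the opposite strand. The single *Cst3* window held none of the 4 motifs. A match of letters is no evidence of binding, and the gene-level values do not tell which *Fetub* start was used.

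*Fetub* (ENSMUSG00000022871.13) spans chr16:22918334-22939778 on the + strand in GENCODE M21. It had 19, 16 and 42 reads in the control libraries (replicates 1, 3 and 4) and 141, 229, 226 and 210 reads in EPS libraries (replicates 1 to 4). In CPM these were 1.11, 0.963 and 1.90 in control and 6.56, 11.2, 10.3 and 11.2 in EPS. All 4 EPS libraries lay above all 3 control libraries, and the lowest EPS library was 3.46-fold the highest control. The mean was 1.32 ± 0.504 CPM in control (SD, n = 3) and 9.80 ± 2.19 CPM in EPS (SD, n = 4), a ratio of means of 7.41. On the log2(CPM + 1) scale the difference was 2.21 (SE 0.28), and this scale understates the change of a gene near 1 CPM. EPS replicate 1 was the low EPS library and control replicate 4 the high control library. Without control replicate 4 the difference was 2.38 on the same scale.

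*Fetub* was the single one of the 4 detected genes whose groups did not overlap. Over all 19144 genes with a read in some library, 7.76% had every EPS library above every control library and 2.85% had every EPS library below. Since *Fetub* was selected on this contrast, nothing is read from that share.

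*Ahsg* (ENSMUSG00000022868.6, chr16:22891277-22899449, + strand) is the fetuin A gene and the nearest protein-coding gene upstream of *Fetub*. It had 0 reads in all 7 libraries. A count of 0 allows up to 0.136 to 0.181 CPM by counting error, depending on the library. The limit of 0.136 is that of control replicate 4, where 359 genes had 1 to 5 reads, far fewer than elsewhere. In that library a 0, for this or any gene, may stand for a low count. It was the 1 gene of the 5 that did not pass the filter of any read in any library, and no fold change can be given for it. The annotation places the antisense gene *Gm30505* over part of it.

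The neighbours of *Fetub* on chromosome 16 were read out to 5 genes on either side in RefSeq. *Hrg*, which encodes histidine-rich glycoprotein, another plasma protein with cystatin domains, lies next downstream and had 0 reads in every library. *Kng2*, a kininogen gene with cystatin domains, comes after it and was detected at 4.69 ± 1.47 CPM in control (SD, n = 3) and 4.59 ± 2.12 CPM in EPS (SD, n = 4). Its log2 difference was -0.07 (SE 0.34), with an adjusted p of 0.939 (limma, Benjamini-Hochberg). Upstream, *Dnajb11*, a chaperone of the endoplasmic reticulum, was at 148 ± 22.5 CPM in control and 131 ± 6.17 CPM in EPS, with an adjusted p of 0.717 (limma, Benjamini-Hochberg). *Tbccd1* was at 25.5 ± 4.30 CPM in control and 28.6 ± 3.84 CPM in EPS, with an adjusted p of 0.789 (limma, Benjamini-Hochberg). None of these 3 detected neighbours passed the threshold, and their groups overlapped. The remaining neighbours, 2 long noncoding RNAs and 3 pseudogenes, were not analysed here.

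*Cst6* (ENSMUSG00000024846.6, chr19:5344705-5349574, - strand) encodes cystatin E/M, a secreted inhibitor best known in skin. It had 247, 269 and 954 reads in the control libraries (replicates 1, 3 and 4) and 904, 1642, 1005 and 1186 reads in EPS libraries (replicates 1 to 4). In CPM these were 14.4, 16.2 and 43.1 in control and 42.1, 80.0, 45.9 and 63.0 in EPS. The groups overlapped through a single pair, since control replicate 4 was above EPS replicate 1, and every other EPS library was above every control. The mean was 24.6 ± 16.1 CPM in control (SD, n = 3) and 57.7 ± 17.4 CPM in EPS (SD, n = 4), a ratio of means of 2.35. The log2(CPM + 1) difference was 1.33 (SE 0.38). It was 1.81 without control replicate 4, the highest of the 7 values obtained by leaving out each library in turn, and 1.05 without control replicate 1, the lowest.

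*Cst3* (ENSMUSG00000027447.6, chr2:148871722-148875692, - strand) encodes cystatin C, a secreted inhibitor made by nearly all cells. Its reads were 1671, 1577 and 3195 in the control libraries (replicates 1, 3 and 4) and 2259, 3922, 2084 and 2059 in EPS libraries (replicates 1 to 4). In CPM these were 97.4, 94.9 and 144 in control and 105, 191, 95.2 and 109 in EPS. The groups overlapped, and 3 of the 4 EPS libraries lay below control replicate 4. The mean was 112 ± 27.9 CPM in control (SD, n = 3) and 125 ± 44.3 CPM in EPS (SD, n = 4). The log2(CPM + 1) difference was 0.13 (SE 0.26), smaller than its error. Without EPS replicate 2, which was far above the other EPS libraries, it was -0.095, and without control replicate 4 it was 0.32.

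*Cstb* (ENSMUSG00000005054.7, chr10:78425669-78427622, + strand) encodes cystatin B, an inhibitor of cathepsins in the cytosol and nucleus. Its reads were 833, 1140 and 1787 in the control libraries (replicates 1, 3 and 4) and 1675, 2777, 1284 and 1884 in EPS libraries (replicates 1 to 4). In CPM these were 48.6, 68.6 and 80.8 in control and 78.0, 135, 58.7 and 100.05 in EPS. The groups overlapped, with EPS replicate 3 below control replicates 3 and 4 and EPS replicate 1 below control replicate 4. The mean was 66.0 ± 16.3 CPM in control (SD, n = 3) and 93.0 ± 32.9 CPM in EPS (SD, n = 4). The log2(CPM + 1) difference was 0.45 (SE 0.29), and it was 0.25 without EPS replicate 2 and 0.61 without control replicate 4.

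**Figure D1:**
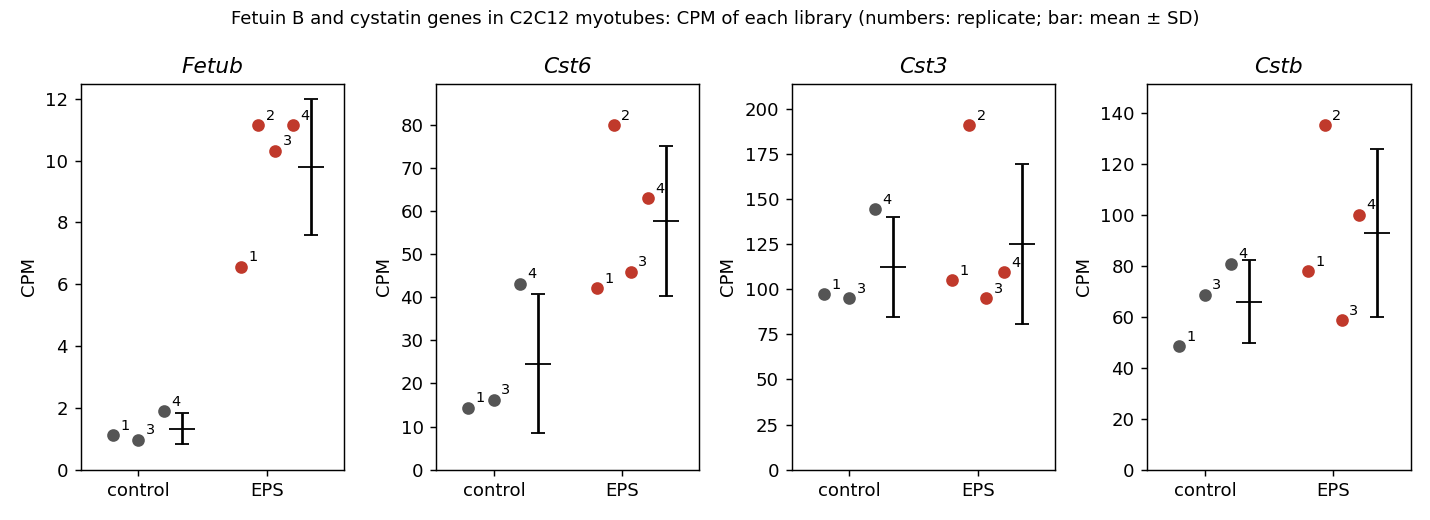
CPM of *Fetub*, *Cst6*, *Cst3* and *Cstb* in each control and EPS library, 1 panel per gene with its own axis from 0. Points carry the replicate number and bars give the mean ± SD (n = 3 control, n = 4 EPS). The EPS points of *Fetub* (6.56 to 11.2 CPM) lie above its control points (0.963 to 1.90 CPM), while the groups of the other 3 genes overlap.

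Across the 4 detected genes, control replicate 4 was the highest control library each time. EPS replicate 2 was the highest EPS library for *Cst6*, *Cst3*, *Cstb* and, by a margin under the rounding of its CPM, for *Fetub*. The profiles of *Cst3* and *Cstb* over the 7 libraries were the closest pair of the 4 genes. Their root-mean-square difference, after centring log2(CPM + 1) on each gene's mean, was 0.27. The same measure was 0.56 for *Fetub* and *Cst6*, and 1.07 for *Fetub* and *Cst3*, the most unlike pair.

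Levels of different genes were compared per kilobase (kb) of 1 GENCODE transcript per gene, which was 1544 bases for *Fetub*, 3951 for *Cst6*, 860 for *Cst3* and 603 for *Cstb*. The *Cst6* transcript is long for the family, and a shorter one in these cells would raise its level per kb. Its share and ratios would then change in every library, so these values depend on this length. On this scale the control means were 131 ± 32.4 CPM per kb for *Cst3*, 109 ± 27.0 for *Cstb*, 6.22 ± 4.07 for *Cst6* and 0.857 ± 0.326 for *Fetub* (SD, n = 3). In EPS they were 146 ± 51.5 for *Cst3*, 154 ± 54.5 for *Cstb*, 14.6 ± 4.40 for *Cst6* and 6.35 ± 1.42 for *Fetub* (SD, n = 4). *Cst3* and *Cstb* did not differ beyond their spread and exchanged ranks between libraries, and *Cst6* and *Fetub* followed in that order in all 7 libraries. Of the summed level per kb of the 4 genes, *Fetub* made up 0.273% to 0.392% in the control libraries and 1.52% to 2.96% in the EPS libraries. *Cst6* made up 1.79% to 3.48% in control and 3.997% to 5.14% in EPS. *Cst3* and *Cstb* together supplied the rest in both groups.

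The ratio of *Cst6* to *Cst3* within each library, per kb, was 0.0322, 0.0371 and 0.0650 in the control libraries, replicates 1, 3 and 4. It was 0.0871, 0.0911, 0.105 and 0.125 in the EPS libraries, replicates 1 to 4, so that the groups, which overlapped in the CPM of *Cst6*, did not overlap in this ratio. Against *Cstb* the ratio was 0.0360 to 0.0815 in control and 0.0824 to 0.119 in EPS, separated by a narrow gap. This gap did not hold after the correction for transcript length described below. On that log2 scale control replicate 4 had more *Cst6* (5.62 against 5.39) and less *Cstb* (6.23 against 6.26) than EPS replicate 1. The ratio of *Fetub* to *Cst6* was 0.113 to 0.197 in control and 0.357 to 0.575 in EPS. These ratios were examined after the levels had been seen and were not tested.

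**Figure D2:**
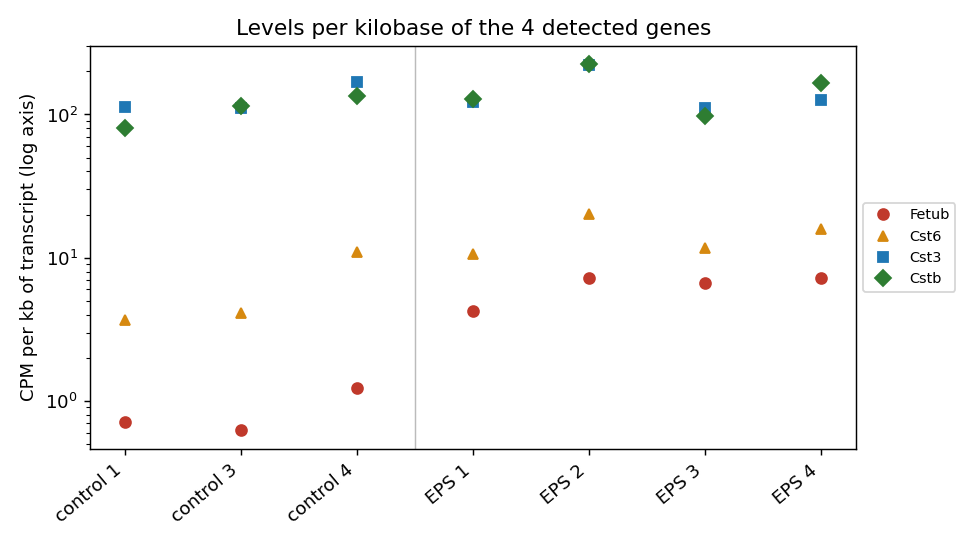
Levels of *Fetub*, *Cst6*, *Cst3* and *Cstb* in each library in CPM per kb of transcript, on a log axis. *Cst3* and *Cstb* sit between 80.5 and 224 CPM per kb, *Cst6* between 3.64 and 20.2, and *Fetub* between 0.624 and 7.23, with every *Fetub* point of control below every one of EPS.

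The level of *Cstb* in a library moved with that of short transcripts at large, and that of *Cst3* did so in part. For 289 genes of at least 1 CPM with a transcript under 750 bases, the median deviation from their own means in log2(CPM + 1) was -0.48, -0.16 and 0.043 in the control libraries, replicates 1, 3 and 4. It was 0.071, 0.52, -0.29 and 0.26 in the EPS libraries, replicates 1 to 4. *Cstb*, whose transcript is of that class, deviated by -0.66, -0.17 and 0.060 in control and by 0.0093, 0.80, -0.40 and 0.37 in EPS. Thus *Cstb* and the short genes were lowest in control replicate 1, highest in EPS replicate 2 and low again in EPS replicate 3. *Cst3* deviated by -0.25, -0.28 and 0.32 in control and by -0.14, 0.72, -0.28 and -0.082 in EPS. Its transcript is of the next class, 750 to 1500 bases (1379 genes), whose medians were -0.34, -0.12 and 0.088 in control and 0.010, 0.35, -0.21 and 0.18 in EPS. *Cst3* shared the peak in EPS replicate 2 with this class but had the opposite sign in EPS replicates 1 and 4. For the 5443 genes with transcripts of 3000 bases or more the medians lay between -0.20 and 0.097. The EPS mean minus the control mean of these medians was 0.34 for the short genes and 0.097 for the long genes.

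After a loess correction of each library for transcript length, the difference of *Cstb* was 0.15 and that of *Cst3* -0.12 on the log2 scale. The pooled SD of *Cstb* within the groups went from 0.457 to 0.146, and that of *Cst3* from 0.408 to 0.231. *Fetub* and *Cst6* kept differences of 2.07 and 1.24, and the EPS libraries of *Fetub* stayed above its control libraries. The pooled SD of *Cst6* did not shrink and went from 0.620 to 0.670. Its control replicate 4, at 5.62, then lay above both EPS replicate 1, at 5.39, and EPS replicate 3, at 5.50. The loess was fitted on the 10999 genes of at least 1 CPM whose symbol in the files had a transcript length, leaving out 2 that had one under an older symbol, and it was added after these data had been seen.

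**Figure D3:**
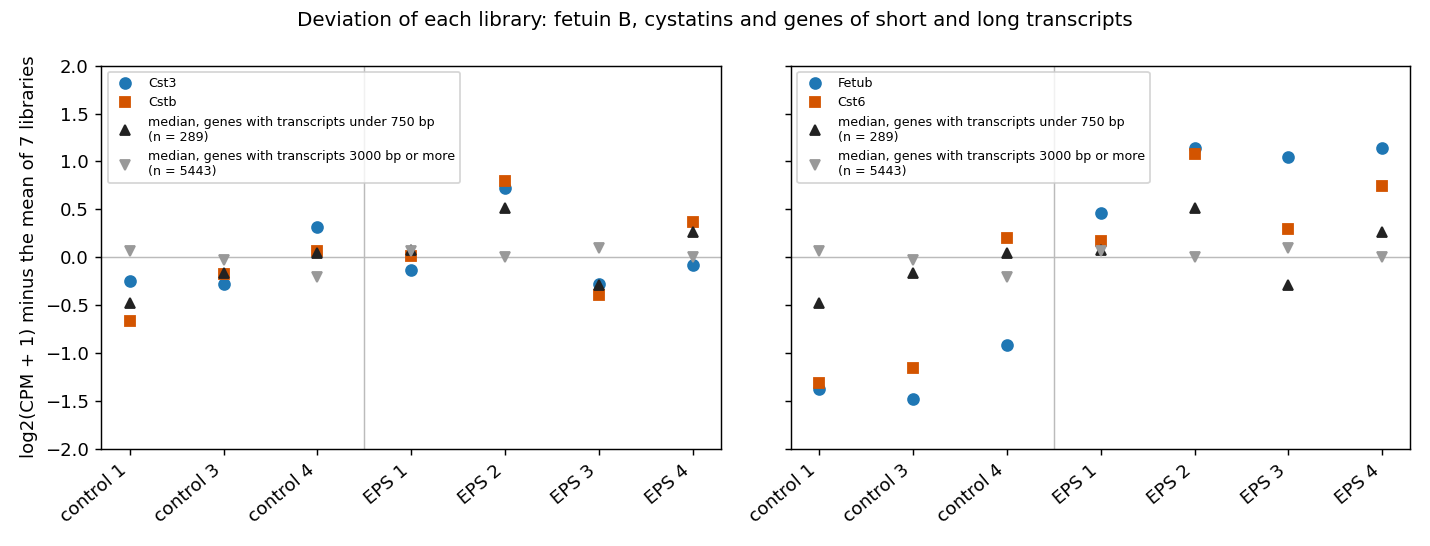
Deviation of each library from the mean of all 7 in log2(CPM + 1), for *Cst3* and *Cstb* (left) and *Fetub* and *Cst6* (right), with the median of 289 genes of short transcripts and of 5443 genes of long transcripts. *Cstb* lies near the short genes, which range from -0.48 to 0.52, *Cst3* less so, and *Fetub* spans -1.49 to 1.14 and separates control from EPS.

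The genes whose library profiles were most like each of the 4 were found among 12252 other genes of at least 1 CPM, by the same root-mean-square difference. For *Fetub* they were *Hlf* (0.27), *Slc48a1* (0.28) and *Aox1* (0.31), with log2 differences of 1.85, 1.96 and 1.78. For *Cst6* they were *Arhgdib* (0.26), *4930572J05Rik* (0.26) and *Ftl1* (0.30), with log2 differences between 1.21 and 1.27. For *Cst3* they were *2310016M24Rik* (0.075), *Pam16* (0.081) and *Atp5l* (0.097). For *Cstb* they were *Mrpl33* (0.044), *Ndufa7* (0.062) and *Gm7120* (0.074). *Pam16*, *Atp5l*, *Mrpl33* and *Ndufa7* have transcripts of 478 to 596 bases and encode mitochondrial proteins. This is a description over 7 libraries, and the likeness was not tested.

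The rest of the cystatin superfamily was nearly silent in these myotubes. Of 22 other members, 13 had 0 reads in every library, 17 had at most 3 reads in any library, and 2 reached a mean of 1 CPM. *Lxn*, which encodes latexin, an inhibitor of carboxypeptidases, was at 9.74, 13.1 and 13.3 CPM in control and 14.7, 18.0, 11.5 and 16.3 CPM in EPS, and the groups overlapped. Its log2 difference was 0.30 with an adjusted p of 0.664 (limma, Benjamini-Hochberg). *Cstl1* and *Camp* had all EPS libraries above all controls, on at most 9 and 4 reads, which makes 2 of the 9 genes tested against 7.76% of all genes. *Cstl1* had 2, 3 and 0 reads in control and 6, 5, 4 and 9 in EPS. *Camp* had none in control and 1, 1, 1 and 4 in EPS. No gene of this list was called by limma, edgeR or DESeq2, and 1 had an unadjusted P under 0.05.

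In 7 gene lists for the family, proteases, calcification and liver plasma proteins, 58 of 81 genes were above 0 in some library and were tested. With the call of limma (P under 0.01 before adjustment and a change over 2-fold), 1 of the 58, or 1.72%, was higher in EPS and 1 was lower, against 0.966% and 0.439% of all genes tested. None reached an adjusted p under 0.05 (limma, Benjamini-Hochberg), which 0.141% of all genes did. An unadjusted P under 0.05 in limma was found for 11 of the 58, against 11.6% of all genes, the share to set beside this count in each list. The adjusted threshold was passed by 2 genes in edgeR, where 1.51% of all genes passed it, and by 3 in DESeq2, where 3.52% did. By the unadjusted P and fold of the first call, edgeR called 3.29% and DESeq2 3.06% of all genes. The groups did not overlap for 6 genes higher in EPS and 3 lower, or 10.3% and 5.17% of the 58, against 7.76% and 2.85% of all genes tested. The median log2 difference was 0.025, against 0.041 over all genes tested.

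The papain-like cathepsins are targets of cystatins B, C and E/M, and legumain is a target of cystatins C and E/M. The mean levels of these 11 genes ran from 0.133 CPM (*Ctss*) to 753 CPM (*Ctsl*). All 11 were detected and 9 reached a mean of 1 CPM. None was called by limma, 3 had an unadjusted P under 0.05, edgeR called none and DESeq2 called *Ctsc*. *Ctsl*, encoding the lysosomal cathepsin L, was at 541, 560 and 508 CPM in control and 815, 1212, 715 and 919 CPM in EPS. Every EPS library was above every control, and the log2 difference of 0.74 (SE 0.24) had an adjusted p of 0.267 (limma, Benjamini-Hochberg). *Ctsb*, encoding cathepsin B, was at 634 to 790 CPM in control and 486 to 1107 CPM in EPS, and overlapped. *Lgmn*, encoding legumain, was at 88.2 to 134 CPM in control and 102 to 199 CPM in EPS. *Ctsz* was at 68.4 to 96.8 CPM in control and 76.0 to 89.6 CPM in EPS. EPS replicate 2 was the highest library for *Ctsl*, *Ctsb* and *Lgmn*, as it was for the 3 cystatins. *Ctsk*, encoding the osteoclast protease cathepsin K, had 12, 7 and 25 reads in control and 9, 2, 1 and 7 in EPS. In CPM every EPS library was below every control, narrowly, with 0.419 in EPS replicate 1 against 0.421 in control replicate 3. Its log2 difference of -0.50 (SE 0.16) had an adjusted p of 0.262 (limma, Benjamini-Hochberg). On so few reads this size depends on the processing, with -1.47 at a pseudocount of 0.1, -1.78 in edgeR and -1.82 in DESeq2. Groups thus did not overlap for 1 gene higher and 1 lower of the 11, against 7.76% and 2.85% of all genes. *Ctsc*, encoding a dipeptidyl peptidase, had a log2 difference of -0.74 with an adjusted p of 0.363 (limma, Benjamini-Hochberg).

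Among 6 other lysosomal proteases, *Ctsd*, *Ctsa* and *Tpp1* reached a mean of 1 CPM and overlapped between the groups. *Ctsd*, encoding the aspartic protease cathepsin D, was at 1275, 1146 and 2358 CPM in control and 1103 to 1489 CPM in EPS. Its log2 difference of -0.16 turned to 0.17 without control replicate 4. None of the 6 was called by limma, edgeR or DESeq2, and 1 had an unadjusted P under 0.05.

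The astacin proteases, of which fetuin B inhibits ovastacin and the meprins, were represented mainly by *Bmp1*, which encodes the procollagen C-proteinase of the tolloid subfamily and is not known as a target of fetuin B. *Bmp1* was at 178, 161 and 144 CPM in control and 135, 165, 171 and 135 CPM in EPS, with log2 difference -0.09 (SE 0.16) and an adjusted p of 0.864 (limma, Benjamini-Hochberg). The related *Tll1* averaged 1.89 CPM and overlapped too. *Astl*, the gene of ovastacin, had at most 1 read in any library. *Mep1a*, a meprin gene, had 0 reads in all 3 control libraries and 3, 2, 2 and 2 in EPS, at the floor of 3 reads, so no fold is given. *Tll2* had 1 read in total and *Mep1b* none. None of the 5 tested astacin genes was called by limma, edgeR or DESeq2, and 1 had an unadjusted P under 0.05.

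Calpains are cysteine proteases of the cytosol that classical cystatins other than the kininogens do not target. They gave 1 limma call in 10, lower in EPS, against 0.439% of all genes tested. *Capn3*, the muscle calpain, was at 43.4, 46.6 and 26.1 CPM in control and 16.6, 19.2, 18.1 and 10.9 CPM in EPS. It fell by 1.19 on the log2 scale (SE 0.27), with all EPS libraries below all controls and an adjusted p of 0.126 (limma, Benjamini-Hochberg). In edgeR and in DESeq2 its adjusted p was under 0.05, as it was for 1.51% and 3.52% of all genes. The abundant *Capn2*, *Capns1*, *Cast* (calpastatin, the calpain inhibitor) and *Capn1* overlapped between the groups.

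Among 10 regulators of calcification, the process that fetuin A restrains in plasma, *Phospho1* was the 1 limma call, higher in EPS, against 0.966% of all genes tested. It encodes a phosphatase that releases phosphate in mineralizing tissue, and was at 6.41, 3.49 and 5.24 CPM in control and 15.5, 12.6, 15.5 and 11.4 CPM in EPS. It rose by 1.31 on the log2 scale (SE 0.26), with all EPS libraries above all controls and an adjusted p of 0.097 (limma, Benjamini-Hochberg). In edgeR and in DESeq2 its adjusted p was under 0.05, as it was for 1.51% and 3.52% of all genes. *Mgp*, a calcification inhibitor, was at 153 to 222 CPM in control and 209 to 511 CPM in EPS, with an adjusted p of 0.486 (limma, Benjamini-Hochberg). *Spp1* and *Slc20a1* overlapped between the groups. *Ank*, a pyrophosphate transporter, was at 419 to 483 CPM in control and 362 to 417 CPM in EPS, with an adjusted p of 0.623 (limma, Benjamini-Hochberg).

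**Figure D4:**
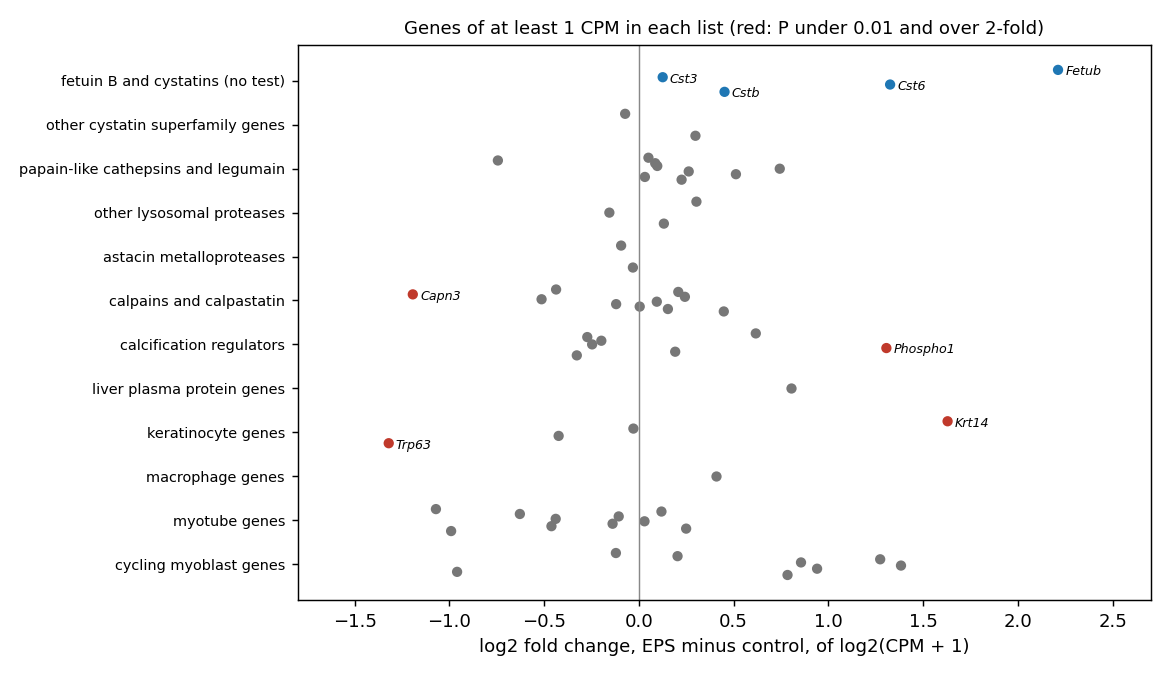
Log2 difference, EPS minus control, of each gene with a mean of at least 1 CPM in the lists, with *Fetub*, *Cst6*, *Cst3* and *Cstb* in blue and genes at an unadjusted P under 0.01 and over 2-fold in red. *Fetub* at 2.21 lies to the right of all plotted list genes, and most protease genes lie between -0.74 and 0.74.

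Other cell types in which these genes are best known were looked for with their markers. Of 16 liver plasma protein genes, 13 had at most 3 reads in any library and *Cp* (ceruloplasmin) alone reached 1 CPM. *Cp* was at 205, 162 and 158 CPM in control and 332, 365, 340 and 206 CPM in EPS. Its log2 difference was 0.80 with an adjusted p of 0.211 (limma, Benjamini-Hochberg), and none of the list was called by limma, edgeR or DESeq2, with 2 at an unadjusted P under 0.05. The summed level of the list, nearly all of it *Cp*, was 159 to 205 CPM in control and 206 to 366 CPM in EPS. *Fetub* was thus read in cultures in which *Alb*, *Apoa1* and *Ahsg* were at 0.

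Of 11 keratinocyte genes, *Krt5* and *Krt1* had at most 1 read, and the summed level was 42.9 to 62.0 CPM in control and 27.5 to 42.6 CPM in EPS. *Krt14* was at 1.92, 3.67 and 3.93 CPM in control and 12.3, 10.8, 10.8 and 12.6 CPM in EPS, and rose by 1.63 on the log2 scale with an adjusted p of 0.069 (limma, Benjamini-Hochberg). *Trp63*, a transcription factor of basal epithelium, was at 47.8, 47.2 and 31.96 CPM in control and 17.7, 22.9, 17.6 and 9.24 CPM in EPS, and fell by 1.32 with an adjusted p of 0.129 (limma, Benjamini-Hochberg). In limma these were the calls of the list, 1 higher and 1 lower of 11, against 0.966% and 0.439% of all genes tested. Both genes were also called by edgeR and by DESeq2, against 3.29% and 3.06% of all genes. Both were under an adjusted p of 0.05 in each of these tools, as were 1.51% of all genes in edgeR and 3.52% in DESeq2. *Trp63* made up most of the sum in each control library, and the part of such cells in the level of *Cst6* was not tested. Of 8 macrophage genes, 4 had at most 3 reads in any library, *Cd68* alone reached a mean of 1 CPM, none was called by limma, edgeR or DESeq2 with 1 at an unadjusted P under 0.05, and the sum was 1.63 to 2.53 CPM in control and 1.86 to 3.03 CPM in EPS. The 8 genes of cycling myoblasts summed to 254 to 341 CPM in control and 368 to 981 CPM in EPS, higher in all EPS libraries. *Mki67* and *Top2a* made up most of this sum in every library, 6 of the 8 genes had a positive log2 difference, and the groups of each of the 8 overlapped. The 10 myotube genes summed to 13592 to 18113 CPM in control and 11743 to 15249 CPM in EPS. Of the 8 cycling genes limma called none, with 5 at an unadjusted P under 0.05 against 11.6% of all genes. Both edgeR and DESeq2 called 3 of them, *Mki67* and *Ccnb1* higher and *Id3* lower, against 3.29% and 3.06% of all genes. Of the 10 myotube genes limma called none, with 1 at an unadjusted P under 0.05, and both count tools called *Actn2* and *Myog*, lower in EPS. *Actn2* was at 99.4, 48.8 and 78.7 CPM in control and 33.5, 30.4, 48.1 and 34.4 CPM in EPS. All its EPS libraries lay below all controls, as in 2.85% of all genes, and it was the 1 such gene of the 10. Its log2 difference was -0.99 with an adjusted p of 0.177 (limma, Benjamini-Hochberg). *Myog* was at 473, 565 and 1794 CPM in control and 281, 605, 406 and 278 CPM in EPS, and its groups overlapped. Its highest value lay in control replicate 4, the library that stood apart. The part of cycling cells and of myotubes in the levels of *Fetub* and *Cst6* was not tested.

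The differences of the 4 genes under each way of processing ranged from 2.07 to 2.82 for *Fetub*, from 1.05 to 1.81 for *Cst6*, from 0.15 to 0.65 for *Cstb*, and from -0.12 to 0.32 for *Cst3*, on the log2 scale. The order *Fetub*, *Cst6*, *Cstb*, *Cst3* held under every one of the 17 settings plotted, whereas the sign of *Cst3* did not.

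**Figure D5:**
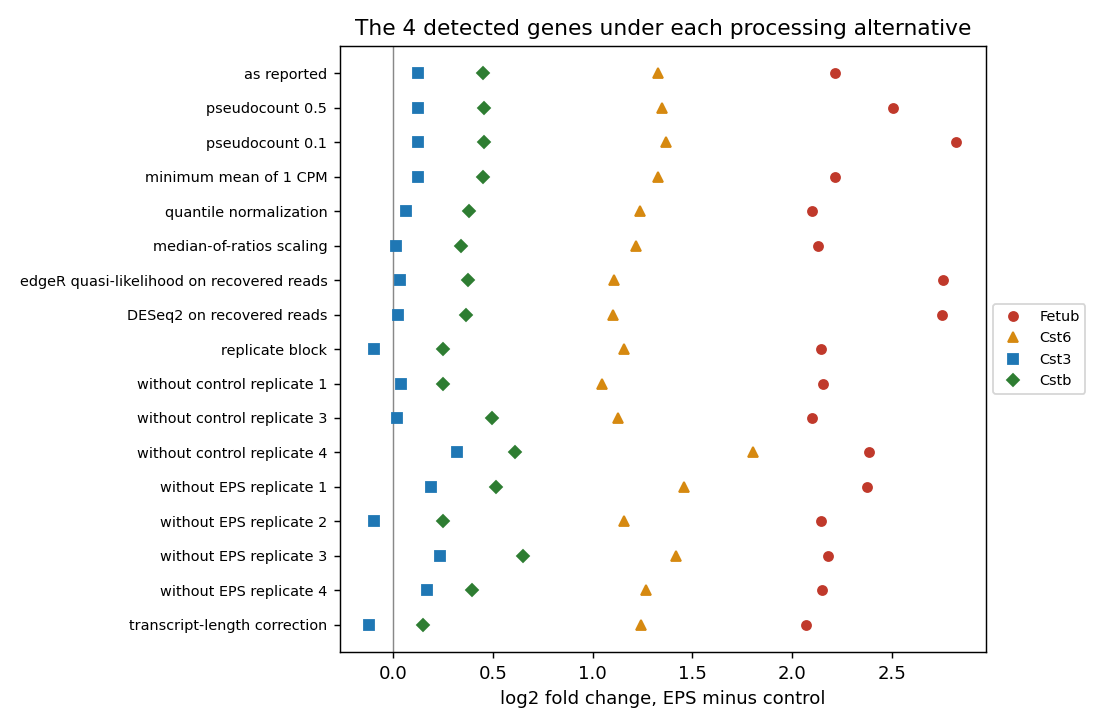
Log2 fold change, EPS minus control, of *Fetub*, *Cst6*, *Cst3* and *Cstb* as reported and under 16 processing alternatives, 1 line of points per setting. *Fetub* stays between 2.07 and 2.82 and *Cst3* lies around 0, from -0.12 to 0.32.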

How the data were processed

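Poly(A) RNA of C2C12 myotubes was sequenced from directional libraries as paired-end reads. Per the submitters' processing notes, mapping used STAR 2.5.4b and GRCm38, and the authors deposited CPM for each gene and library. The read counter, annotation and use of strand are not given in the sources used here, so genes that overlap or have near copies are uncertain. The deposited CPM were whole multiples of 1 read for 100% of values (tolerance 0.05 of a read), and reads were recovered from them.

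The members and gene lists were chosen with earlier results of these data known. Symbols were matched to GENCODE M21 for coordinates, and 3 list genes were read under an older symbol. EPS (n = 4) was compared with control (n = 3) by limma 3.58.1 in R 4.3.3 with a mean-variance trend on log2(CPM + 1), two-sided, over the 19144 genes above 0 in any library, with Benjamini-Hochberg adjustment over all of them. A gene was called at an unadjusted P under 0.01 and over 2-fold. The 4 detected genes of the 5 were in this set, but their P values for EPS against control are not reported. From each list the text names called genes and otherwise up to 4 of the highest mean CPM. Genes of few reads, *Ctsk*, *Ctsc*, *Ank* and *Cp* were also named after their values were seen. Transcript length was that of 1 principal GENCODE transcript per gene, found for 89.8% of the 12256 genes of at least 1 CPM.

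Other settings tried were a pseudocount of 0.5 or 0.1, a filter at a mean of 1 CPM, quantile and median-of-ratios scaling, edgeR 4.0.16 (TMM, quasi-likelihood) and DESeq2 1.42.0 on recovered reads, the replicate number as a block, a P threshold of 0.001, leaving out each library in turn, and the length correction. The tests were run on simulated reads with known changed genes, whose outcome is not quoted here. Intervals and the floor cover counting error only.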

Additional observations from a re-analysis of the deposited data

Results flagged for a closer look

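The *Cst3* level of EPS replicate 2, 191 CPM, stood far from the other 3 EPS libraries, which were at 95.2, 105 and 109 CPM, by Dixon's criterion for 4 values. *Cst3* was chosen with these values known, so this describes the library and is no test of the gene. About 1 in 20 groups passes the criterion by chance, a rate that does not hold for genes chosen with their values known, so nothing is read from it. The criterion was applied to the highest and lowest EPS library of each detected gene and of the list genes that were called or singled out. Genes with transcripts of 750 to 1500 bases, the class of *Cst3*, were also highest in this library, with a median deviation of 0.35 on the log2 scale. After the length correction *Cst3* was at 7.17 in this library and at 6.70, 6.84 and 6.59 in EPS replicates 1, 3 and 4. The part of transcript length in the *Cst3* level was not tested.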

How the results depend on the processing

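The *Fetub* difference of 2.21 on the log2 scale was 2.82 with a pseudocount of 0.1, 2.76 in edgeR and 2.75 in DESeq2. The other 13 alternatives moved it by less than the spread between replicates, and all alternatives for *Cst6*, *Cstb* and *Cst3* did so too. Leaving out each library in turn gave 2.10 to 2.38 for *Fetub*, 1.05 to 1.81 for *Cst6*, 0.25 to 0.65 for *Cstb* and -0.095 to 0.32 for *Cst3*. In the 7 lists, 2 genes were called, *Capn3* and *Phospho1*, and 1 (*Phospho1*) at a P threshold of 0.001. A pseudocount of 0.1 gave 3, with *Mep1a*, and DESeq2 gave 3, with *Ctsc*. The difference of *Ctsd*, -0.16, turned to 0.17 without control replicate 4, and the other libraries left out gave -0.35 to -0.056.

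With the replicate number as a block, which leaves out EPS replicate 2, the differences were 2.15, 1.16, 0.25 and -0.095 for *Fetub*, *Cst6*, *Cstb* and *Cst3*, and *Capn3* and *Phospho1* stayed the 2 list genes called. Over all genes the block gave 174 higher and 102 lower calls, against 185 and 84 without it, and 0 against 27 genes at an adjusted p under 0.05 (limma, Benjamini-Hochberg). Libraries of the same number did not all deviate together (correlations across 12256 genes of 0.25, -0.45 and 0.068 for replicates 1, 3 and 4). Nor was every library closest to its own number. With groups of 3 and 4 libraries and deviations taken from the group means, this cannot decide whether the numbers pair the libraries. The median log2 difference of genes of at least 1 CPM was 0.10 as deposited and 0.0052 after quantile scaling, where 51.6% of the calls were higher in EPS against 68.8% as deposited. Over all genes, the calls were 329 higher and 300 lower in edgeR and 317 and 268 in DESeq2, and 445 and 156 with a pseudocount of 0.1. Genes at an adjusted p under 0.05 ranged from 0, with the block or without EPS replicate 3 (limma, Benjamini-Hochberg), to 503 in DESeq2. Depth limits *Ahsg* and the lists' genes of few reads, for which a small difference was not detectable.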
